A study of Acipenser dabryanus with 12 samples.

Results

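The genes described here are the abundant genes with the most even level in RNA of brain, liver and spleen from the Yangtze sturgeon, Acipenser dabryanus. They were selected on their own measured levels: at least 50 TPM in each of the 12 libraries, and a highest value at most 3 times the lowest. TPM is the abundance of a transcript, corrected for its length, as a share of the library's total. Of 280408 genes of a de novo assembly, 347 reached 50 TPM in every library, and 80 of these also stayed within the limit on the ratio. The evenness is that of TPM as deposited: after the other scalings of the libraries described below, 39 to 74 of the 80 met the same limits. All 80 passed the filter on low values used in the tests below. Because these levels chose the genes, their levels and tissue differences are given as a description and were not tested.

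The 12 libraries came from 3 tissues, 2 diets and 2 sampling times, with 1 library for each combination. The labels speak of 3 samples per group, and how these relate to the 1 library used here is not stated. The fish, about 6 months old, had eaten feed with soybean oil or with fish oil once a day at 16:00 for 7 weeks, each diet in a pond of its own, so diet and pond cannot be told apart. They were sampled 1 h before the meal ("before feeding") or 1 h after it ("after feeding"), so feeding state and hour cannot be told apart. There was no group without either oil, and it is not stated whether RNA of 1 fish or of several went into a library. A spread over the 4 libraries of a tissue therefore includes diet and feeding state. In such bulk samples, fewer cells of a type and less RNA per cell cannot be told apart.

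Genes with even levels matter because abundance is usually read against a reference. Cells of every tissue use genes for making protein, keeping their shape and releasing energy, and such housekeeping genes are the common references of quantitative PCR. TPM has a fixed total, so when a tissue such as liver, which secretes most plasma proteins, spends a large share of its RNA on a few transcripts, every other transcript takes a smaller share even if its amount per cell is the same. A set of reference genes can serve to rescale libraries for this, provided that the genes themselves do not differ. Sturgeons descend from ancestors with duplicated genomes, so an assembly can hold near-identical copies of a gene under several IDs.

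The files pair no assembled ID with a gene name, so the function of the 80 genes is not known here. The tissue labels could not be checked against marker genes for the same reason. The number of genes of at least 1 TPM lay between 52435 and 78832 in the brain libraries, between 29749 and 46726 in the liver libraries and between 47226 and 62193 in the spleen libraries. The 10 most abundant genes of a library took 9.25% to 13.7% of its TPM in brain, 15.0% to 22.4% in liver and 14.6% to 22.1% in spleen. Depth cannot be read from TPM, and counting intervals are therefore not given.

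An even level over these tissues was uncommon in TPM as deposited. Among the 347 genes of at least 50 TPM throughout, the median gene had a highest value 3.93 times its lowest. Within this set, 7 genes stayed within a ratio of 2, 80 within 3 (23.1%), 239 within 5 and 292 within 10. No gene of the 347 stayed within 1.5. After the other scalings described below, 71 to 197 genes met the limits of 50 TPM and a ratio of 3. Evenness went only partly with abundance: a ratio of at most 3 was held by 11.5% of the 15053 genes of at least 1 TPM in every library, 21.7% of the 3822 of at least 5 TPM, 26% of the 850 of at least 20 TPM and 20.4% of the 191 of at least 100 TPM.

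The 80 genes spanned a wide range of abundance. Their geometric means over the 12 libraries ran from 67.8 to 6789 TPM, with a median of 164 TPM. Of them, 48 lay under 200 TPM (14 under 100 TPM), 15 between 200 and 500 TPM, 6 between 500 and 1000 TPM and 11 above 1000 TPM. The ratio of highest to lowest value was 1.76 to 2.998 with a median of 2.57, and the coefficient of variation over the 12 libraries was 16.7% to 41.7% with a median of 28.8%. The median ratio was 2.36 in the 14 genes under 100 TPM and 2.77 in the 11 above 1000 TPM. Most members thus sat in the upper part of the range that the limit allows.

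Values of single genes are given below in the order soybean oil before feeding, fish oil before feeding, soybean oil after feeding and fish oil after feeding. The most abundant member, TRINITY_DN116054_c0_g2, stood at 10424, 5784, 7250 and 6169 TPM in brain. In liver it stood at 6069, 4745, 4068 and 4568 TPM, and in spleen at 11008, 8891, 7762 and 8751 TPM. Spleen was highest and liver lowest, and all 4 spleen libraries lay above all 4 liver libraries. The second, TRINITY_DN110269_c1_g1, had 6517, 4430, 4115 and 3506 TPM in brain, 6692, 4666, 3675 and 4620 TPM in liver and 7494, 5910, 5407 and 5036 TPM in spleen. Its libraries overlapped between all 3 tissues, and within each tissue the soybean oil library before feeding was the highest. The third, TRINITY_DN113088_c2_g2, had 6951, 3524, 4767 and 4571 TPM in brain, 4280, 3253, 2660 and 3491 TPM in liver and 7676, 5627, 5402 and 6327 TPM in spleen. It followed the first, with liver below spleen in every library.

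The flattest member, TRINITY_DN135201_c3_g1, had 123, 70.9, 79.1 and 88.2 TPM in brain, 117, 82.9, 95.8 and 109 TPM in liver and 125, 119, 119 and 116 TPM in spleen, a ratio of 1.76. Its 4 spleen libraries were nearly equal (120 ± 3.66 TPM, SD, n = 4), while its brain libraries varied more (90.2 ± 22.7 TPM, SD, n = 4). TRINITY_DN112586_c0_g1, at a ratio of 1.80, had 116, 120, 96.3 and 117 TPM in brain, 103, 66.6, 85.9 and 110 TPM in liver and 87.1, 74.8, 72.0 and 72.0 TPM in spleen. Its brain libraries all lay above its spleen libraries. TRINITY_DN129856_c3_g1, at a ratio of 1.82, had 182, 157, 203 and 187 TPM in brain, 166, 177, 149 and 175 TPM in liver and 260, 243, 270 and 169 TPM in spleen. Even among these 3 genes, the tissue with the highest mean was not always the same.

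The limits were not natural breaks. Just inside the ratio limit stood TRINITY_DN116614_c1_g3 (863 to 2587 TPM, ratio 2.998) and TRINITY_DN128446_c0_g1 (91.0 to 272 TPM, ratio 2.988). Just outside stood TRINITY_DN129691_c0_g1 (94.4 to 283 TPM, ratio 3.002) and TRINITY_DN137049_c0_g3 (199 to 597 TPM, ratio 3.003). At the limit on abundance, TRINITY_DN113470_c3_g3 and TRINITY_DN133715_c0_g1 were inside with a lowest value of 50.6 TPM each. TRINITY_DN140458_c6_g3 and TRINITY_DN114157_c2_g2 were outside with lowest values of 49.9 and 49.5 TPM. The last of these had a ratio of 1.68, smaller than that of any member.

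Within the limit, tissue differences remained, and most of them placed liver low. Liver had the lowest tissue mean in 47 of the 80 genes, spleen in 20 and brain in 13. Brain had the highest mean in 37, spleen in 32 and liver in 11. The highest tissue mean was 1.08 to 2.48 times the lowest, with a median of 1.56. Differences between tissues made up 57.9% of the sum of squares of log2 TPM around the gene means, and diet, feeding state and other differences between libraries of a tissue the rest.

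Between brain and liver, 59 of the 80 genes had a higher mean in brain and the median gene a log2 difference of 0.38. In 24 genes (30%) all 4 brain libraries lay above all 4 liver libraries, and in 6 (7.5%) all liver libraries lay above all brain libraries. Among the 14973 other genes of at least 1 TPM in every library the same held for 53.4% and 5.72%, with a median log2 difference of 1.03. Between spleen and liver, 56 genes were higher in spleen (median log2 difference 0.29). In 24 genes (30%) spleen lay wholly above liver, and in 10 (12.5%) wholly below. Of the other genes, 47.2% and 8.78% did so, with a median of 0.88. Between brain and spleen, 43 genes were higher in brain (median log2 difference 0.042), 12 (15%) lay wholly above spleen and 1 (1.25%) wholly below, against 20.5% and 11.4% of the other genes and a median of 0.14. In 34 of the 80 genes no pair of tissues was separated. Separated genes thus made up a smaller share of the 80 than of the other genes, except for those with liver on top, whose share was slightly larger. The rule used these values, so nothing is read from these shares.

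**Figure D1:**
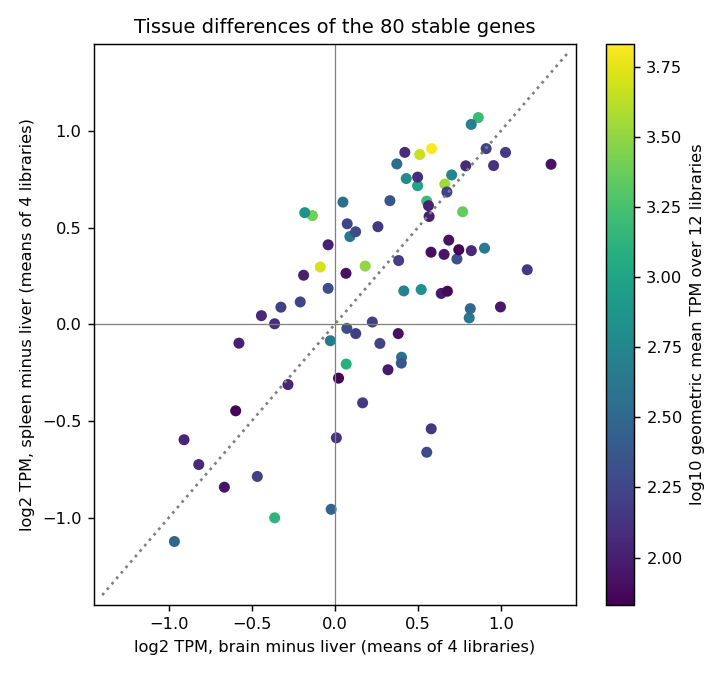
Each point is one of the 80 stable genes, placed by its difference in mean log2 TPM between brain and liver (horizontal) and between spleen and liver (vertical), each mean over 4 libraries, and coloured by the log10 of its geometric mean TPM. Most points lie in the upper right, where both brain and spleen exceed liver. Counted separately, brain exceeds liver in 59 genes and spleen exceeds liver in 56. The dotted line marks equal brain and spleen.

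For each tissue, the members with the highest and the lowest level relative to the other tissues show how far a gene could differ and still belong. TRINITY_DN128446_c0_g1 was highest in brain, at 240 ± 31.6 TPM, against 107 ± 12.1 TPM for liver and 130 ± 8.32 TPM for spleen (SD, n = 4 each), 2.02 times the mean of the other tissues. Its 4 brain libraries (247, 196, 245 and 272 TPM) were all above the highest of the others, 140 TPM. TRINITY_DN137355_c1_g1 was highest in liver, with 416, 594, 443 and 538 TPM there, against 211 to 295 TPM in brain and 200 to 257 TPM in spleen, 2.07 times the mean of the other tissues. It ran against the majority, with every liver library above every other library. TRINITY_DN118890_c1_g4 was relatively highest in spleen, with 1066, 853, 737 and 1144 TPM, or 1.56 times the mean of the other tissues. Here the tissues overlapped, since brain held 863, 466, 492 and 473 TPM and liver 747, 635, 425 and 768 TPM.

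TRINITY_DN108317_c1_g3 was the relatively lowest member in liver, at 52.9, 53.0, 51.3 and 51.4 TPM, against 110 to 153 TPM in brain and 63.7 to 119 TPM in spleen. Its liver libraries agreed within 2 TPM of each other and lay just above the minimum of 50 TPM, so a slightly lower liver level would have removed it. TRINITY_DN122192_c0_g1 was relatively lowest in spleen, at 124, 113, 116 and 141 TPM, with 170 to 233 TPM in liver and 240.5 to 339 TPM in brain. Its 3 tissues did not overlap at all. TRINITY_DN120206_c0_g1 was relatively lowest in brain, at 134, 63.6, 72.5 and 77.3 TPM, with 135 to 177 TPM in liver and 87.9 to 135 TPM in spleen. The soybean oil brain library before feeding was the one that reached the range of the spleen.

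Some libraries held many members above or below their own means. In the soybean oil brain library before feeding, the median member lay 0.37 above its own mean on the log2 scale, with quartiles of 0.14 and 0.62, and 22 of the 80 genes had their highest value there. In the soybean oil liver library after feeding the median lay at -0.28, with quartiles of -0.65 and -0.0020, and 23 genes had their lowest value there. The 80 genes together took 7.03% of all TPM in the former and 3.58% in the latter. By tissue they took 5.32% ± 1.15 in brain, 4.16% ± 0.453 in liver and 5.74% ± 0.678 in spleen (SD, n = 4 each). The 3 most abundant members alone took 1.04% to 2.62% of a library.

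**Figure D2:**
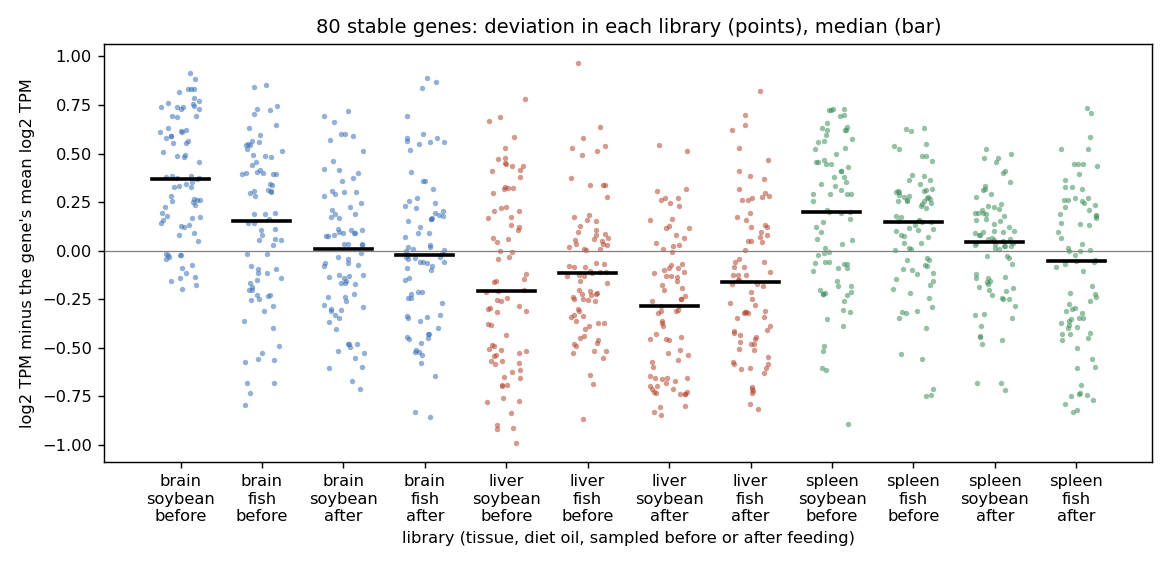
Each point is one of the 80 stable genes in one library, as log2 TPM minus the gene's mean log2 TPM over the 12 libraries; bars are medians and colours mark the tissue. The median is highest in the soybean oil brain library before feeding (0.37) and lowest in the liver library of the same diet after feeding (-0.28), and all 4 liver medians lie below 0.

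The soybean oil libraries before feeding held the highest value of many members. In 42 of the 80 genes (52.5%) the highest of the 12 values was in one of the 3 soybean oil libraries before feeding, and among the 11 genes above 1000 TPM it was so in 10. Within brain that library was the highest of 4 for 49 genes, within liver for 33 and within spleen for 37. The same was seen in the 267 other genes of at least 50 TPM (51.3%) but in 16.5% of the 14973 other genes of at least 1 TPM. These libraries also listed many genes at 0: 165231 in brain, 195361 in liver and 174888 in spleen, the most of their tissue in brain and liver and second in spleen, where the fish oil library after feeding had 176218. Whether the number of genes seen in a library bears on the level of its abundant genes was not tested.

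Few of the 80 genes differed one way between the diets. In pairs of libraries of the same tissue and feeding state, the median log2 difference between soybean oil and fish oil was 0.18 in brain before feeding, -0.0062 in brain after feeding, -0.048 in liver before feeding, -0.14 in liver after feeding, 0.079 in spleen before feeding and 0.061 in spleen after feeding. The number of genes higher with soybean oil was 54 of 80 in brain before feeding and 14 of 80 in liver after feeding, the extremes of the 6 pairs. No gene was higher with soybean oil in all 6 pairs and 2 were lower in all 6, against 0.688% and 2.4% of the 14973 other genes. That share of 2.5% is near the background. The one of the pair with the larger smallest difference, TRINITY_DN108192_c3_g3, had 107 and 212 TPM with soybean and fish oil in brain before feeding and 157 and 172 TPM after it. In liver it had 90.03 and 102 TPM before and 80.8 and 84.2 TPM after feeding, and in spleen 113 and 130 TPM before and 102 and 120 TPM after. The differences ranged from 1.04-fold to 1.98-fold, and the largest was in brain before feeding. When each library was divided by the factor from the members described below, neither of the 2 genes was lower in all 6 pairs. Only 1 other member, TRINITY_DN137355_c1_g1, then was.

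After the meal most members lay lower in TPM in all 3 tissues. The median log2 difference between after and before feeding was -0.53 in brain with soybean oil, -0.12 in brain with fish oil, -0.19 in liver with soybean oil, -0.066 in liver with fish oil, -0.14 in spleen with soybean oil and -0.14 in spleen with fish oil. The number of genes higher after the meal was 17, 32, 28, 33, 23 and 27 of 80 in these pairs. The median of the 14973 other genes was 0.13, 0.034, 0.15, -0.018, 0.09 and -0.45 in the same order, and that of the 267 other genes of at least 50 TPM was -0.44, 0.28, -0.41, -0.12, -0.28 and 0.12. Lower medians in all 6 pairs were thus seen in the 80 genes and in neither of the other sets. The 267 genes also had lower medians in each soybean oil pair and in liver with fish oil. The rule used the members' values, so nothing is read from this difference between the sets, which was not tested. There is 1 pair for each tissue and diet. Whether the 3 tissues were taken from the same animals is not stated, and the 6 pairs may share them.

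**Figure D3:**
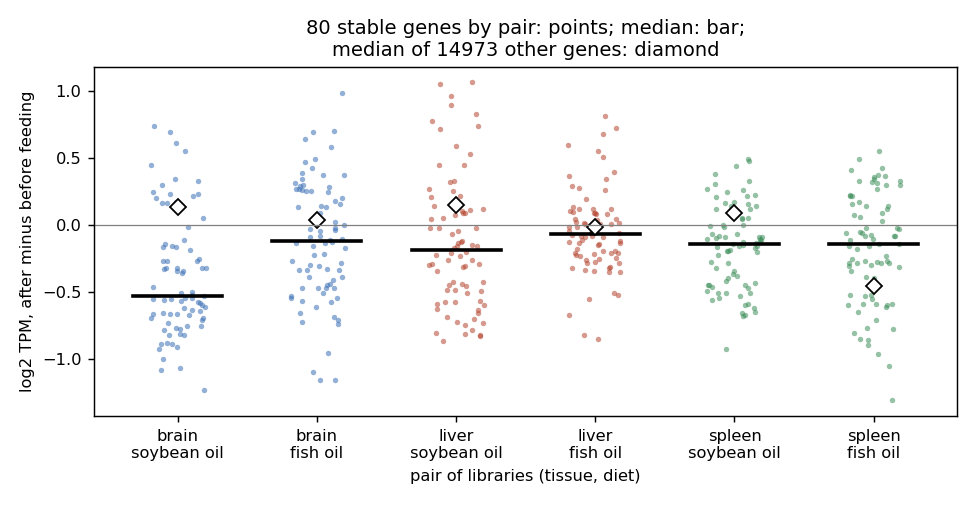
Each point is one of the 80 stable genes, as log2 TPM after feeding minus before feeding within a pair of libraries of one tissue and diet; bars are medians of the 80 genes and diamonds medians of the 14973 other genes of at least 1 TPM in every library. All 6 bars lie below 0, from -0.53 in brain with soybean oil to -0.066 in liver with fish oil, while the diamonds lie on both sides.

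Among the 80 genes, 9 (11.3%) were lower after feeding in all 6 pairs and none was higher in all 6, against 2.01% and 1.17% of the 14973 other genes. Those other genes are mostly less abundant, and the count was not made in the 267 other genes of at least 50 TPM. The rule used the members' values, so the count of 9 is a description. It was 14 over the 5 pairs left when a fish oil liver library was dropped. TRINITY_DN129751_c0_g9 had the largest smallest difference. It stood at 440 TPM before and 310 TPM after feeding in brain with soybean oil, and at 427 and 293 TPM with fish oil. In liver it went from 366 to 299 TPM and from 437 to 379 TPM, and in spleen from 208 to 183 TPM and from 203 to 166 TPM. Each step was 1.14-fold to 1.46-fold. When each library was divided by the factor from the members described below, this gene alone was lower in all 6 pairs, by as much as 1.29-fold, and 1 other, TRINITY_DN108192_c3_g1, was higher in all 6.

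Several members were one of a group of IDs that the assembler had split. In an ID, the numbers after DN and c name a component, and g numbers the genes within it; 60 of the 80 (75%) shared their component with another ID. This was close to the 80.9% of the 267 other genes of at least 50 TPM, and both were above the 46.7% of all 280408 IDs. Such IDs can divide reads of one gene or of near-identical copies. In these 60 the member held a median of 98.7% of its component's TPM. It held over 90% in 39 and under 50% in 5. When TPM was summed over each component, 55 of the 58 components that these 60 genes belong to still met the rule, and 93 component sums met it in all, of which 18 held no member.

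Of the 78 components concerned, 2 held a pair of members. TRINITY_DN121864_c2_g2 had 4641, 3613, 2863 and 2205 TPM in brain, 2642, 3408, 2596 and 2724 TPM in liver and 3985, 3495, 3191 and 3308 TPM in spleen. TRINITY_DN121864_c2_g1 had 3499, 1945, 1891 and 1405 TPM in brain, 2028, 2562, 2103 and 2404 TPM in liver and 3934, 3093, 2857 and 3592 TPM in spleen. The former held 54.6% and the latter 44.2% of their component, whose summed level had a ratio of 2.20, between those of its members (2.11 and 2.80). In the other pair, TRINITY_DN108192_c3_g1 held 56.6% and TRINITY_DN108192_c3_g3 43.3%. They had ratios of 2.84 and 2.62, and 2.42 when summed.

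Whether a gene that is even in some libraries is even in others was looked at in libraries that did not choose it. With liver left out, 404 genes met the rule in the 8 brain and spleen libraries, and only 80 of them (19.8%) met it in all 12. In liver, their median level was 1.09 lower on the log2 scale than in the libraries that chose them. A value under 50 TPM in at least 1 liver library was seen in 174 of them. Looked at in the 4 liver libraries alone, 56.2% of the 404 stayed within the limits, against 52.2% of the 203 other genes of at least 50 TPM in the choosing libraries. With brain left out 170 genes met the rule, 80 of them (47.1%) in all 12, and the median brain level was 0.39 higher. Within brain alone, 91.8% of them stayed within the limits, against 81.2% of 207 others. With spleen left out it was 160 genes, 80 of them (50.0%) in all 12, and the median spleen level was 0.21 higher. Within spleen alone it was 86.25%, against 81.7% of 241 others. These shares lay near those of the genes not chosen, most closely in liver and spleen. Liver was therefore the tissue that removed the most genes from the list.

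Evenness over one sampling time or diet carried over in part to the other. Of 185 genes chosen on the 6 libraries before feeding, 123 (66.5%) also stayed within the limits in the 6 libraries after feeding, against 16.2% of the 228 other genes that had at least 50 TPM in the choosing libraries. Of 178 chosen after feeding, 123 (69.1%) did so before feeding, against 17.1% of 205. Of 115 chosen on soybean oil, 87 (75.7%) did so on fish oil, against 34.6% of 257, and of 207 chosen on fish oil, 87 (42.0%) did so on soybean oil, against 7.58% of 211. The 123 genes are the same in both directions, as are the 87, so the 2 shares of a pair are not separate results. The rule over all 12 libraries was met by 80 of the genes in each case. This was 43.2% of those chosen before feeding, 44.9% after feeding, 69.6% on soybean oil and 38.6% on fish oil. The same 3 tissues are in both sets of 6 libraries, so tissue differences are shared between the sets. Leaving out single libraries gave 81 to 121 genes. The largest number, 121, came without the soybean oil liver library after feeding, in which 41 of these genes broke the limits, all by being too low. Without the brain library of that diet before feeding it was 100 genes, and 19 of the 20 that broke the limits there were too high.

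The members were then used as a reference for scaling. A library factor was computed as the median over the 80 genes of log2 TPM minus the gene's mean log2 TPM, centred on 0. In brain the factors were 0.36, 0.15, 0.0017 and -0.028, in liver -0.21, -0.12, -0.29 and -0.17, and in spleen 0.19, 0.14, 0.038 and -0.062. All liver libraries lay below all brain and spleen libraries. The tissue means were 0.12 ± 0.18 in brain, -0.20 ± 0.073 in liver and 0.077 ± 0.11 in spleen (SD, n = 4 each). The difference between brain and liver was 0.32, or 1.25-fold, that between spleen and liver 1.21-fold and that between brain and spleen 1.03-fold. Brain had the widest spread. After division by the factor the median ratio of highest to lowest fell from 2.57 to 2.16 among the members, and 74 of the 80 stayed within 3. The factor was computed from these same genes, so this fall is not a check on the scaling. Differences between tissues made up 58.8% of the sum of squares of the members after the division, against 57.9% before. Tissue differences of single members thus remained.

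The size of the liver factor depended on which genes served as reference. With a ratio limit of 2 (7 genes) the brain-to-liver difference was 0.0047, with 3 it was 0.32, with 5 (239 genes) 0.70 and with 10 (292 genes) 0.77. With all 347 genes of at least 50 TPM it was 0.84, and with all 15053 genes of at least 1 TPM in every library 1.03. Each wider limit gave a larger difference. When the genes for each tissue's factor were chosen without that tissue, the difference was 1.02, or 2.03-fold. This value is not free of the choice of genes either. The genes for the liver factor had to reach 50 TPM in brain and spleen only, and 174 of the 404 fell below it in liver. Those for the brain factor were held to the limits in liver and spleen. The spleen-to-liver difference behaved likewise, at 0.27 with the 80 genes and 0.90 with genes chosen without the tissue. The brain-to-spleen difference was small throughout, from -0.0038 to 0.15 over these reference sets.

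**Figure D4:**
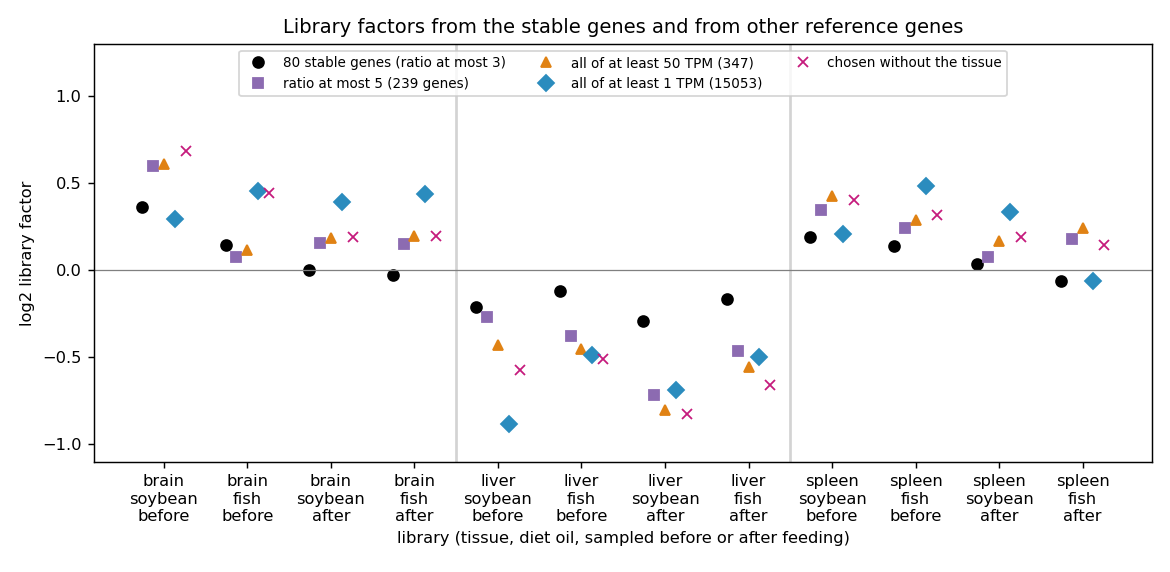
Log2 factor of each library from the 80 stable genes (black circles), from wider sets of genes and from genes chosen without the tissue concerned. The 80 stable genes place the liver libraries between -0.29 and -0.12, and the genes chosen without liver place them between -0.83 and -0.51.

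The reference sets also ordered the libraries of a tissue differently. In brain, the soybean oil library before feeding was the highest by the 80 genes (0.36) and by the 347 genes of at least 50 TPM (0.61), but the lowest of the 4 by the 15053 genes of at least 1 TPM (0.30, against 0.39 to 0.46). In liver, the soybean oil library before feeding was at -0.21 by the 80 genes, second lowest of the 4, and at -0.88 by the 15053 genes, the lowest. By the 347 genes it was at -0.43, the highest of the 4. The rule held the 80 genes to a narrow range, which limits how far they can shift. The 347 genes and the 15053 genes, both chosen on level alone, did not shift by the same amount in these libraries. Among members, the 40 more abundant and the 40 less abundant gave brain-to-liver differences of 0.32 and 0.33, while their brain-to-spleen differences were -0.023 and 0.14. The 20 members whose component holds no other ID gave a brain-to-spleen difference of 0.28 and a liver-to-spleen difference of 0.030, so liver did not lie below spleen by these. When the soybean oil liver library after feeding was left out, the genes were chosen anew on the other 11 libraries, which gave 121 genes. With these, the brain-to-liver and liver-to-spleen differences were 0.46 and -0.46, larger than with the 80 genes over all 12 libraries. The set of genes and the libraries both differ here.

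The spread of other genes within a tissue rose in brain and fell slightly in liver and spleen when the libraries were scaled by the members. Over the 14973 other genes of at least 1 TPM in every library, the median SD of log2(TPM + 1) within a tissue, pooled over tissues, was 0.375 as deposited and 0.389 after the factor from the 80 genes, and 41.2% of the genes had a smaller SD than before. By tissue, the median SD went from 0.373 to 0.425 in brain, from 0.312 to 0.307 in liver and from 0.332 to 0.321 in spleen. It was 0.412 pooled with the factor from the 347 genes and 0.359 with the factor from the 15053 genes, which include the genes measured. Factors from the 3 flattest members departed from those of all 80 by up to 0.47 in a library, and those from the 20 flattest by up to 0.35.

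The effect of this scaling on tissue comparisons was measured in the genes that are not members. Genes that reached 1 TPM in 2 or more libraries, 89972 in all, were tested with limma on log2(TPM + 1) with a Benjamini-Hochberg threshold of 0.05, and 89892 of them were not members. On TPM as deposited, 39345 of these (43.8%) were called between brain and liver. Brain and spleen differed in 24583 (27.3%), and liver and spleen in 29823 (33.2%). After division by the factor from the 80 genes the numbers were 35420 (39.4%), 22964 (25.5%) and 27051 (30.1%). Between brain and liver, 34506 genes were called with the same sign both ways and none with opposite signs. The scaling ended 4839 calls, all of genes higher in brain, and added 914, all of genes higher in liver. Between liver and spleen it ended 3752 calls of genes higher in spleen and 2 of genes higher in liver, and added 977 of genes higher in liver and 5 of genes higher in spleen. The factors are lower in liver than in brain and spleen, so the direction of these changes follows from them. Only the number of calls affected was open.

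The lean of these calls towards brain and away from liver became smaller, and more so with the wider references. Those references gave liver lower factors, so this order follows from the factors. The share of called genes that were higher in brain than in liver was 85.3% as deposited, 81.1% with the 80 genes, 71.3% with the 347 genes, 65.8% with the 15053 genes and 66.0% with genes chosen without the tissue. The share higher in liver than in spleen was 23.8%, 29.8%, 45.5%, 46.4% and 48.2% in the same order. The share higher in brain than in spleen lay between 67.9% and 73.7% under all 5. The median of the 89892 genes between brain and liver was a log2 difference of 0.60 as deposited, 0.49 with the 80 genes and 0.22 with the 15053 genes. Brain stayed the tissue with more higher genes against liver and against spleen under each of these scalings, and liver the one with fewer against spleen. Division by a factor leaves a value of 0 unchanged. Over all 280408 genes of the assembly, tested or not, those at 0 numbered 124780 to 165231 in the brain libraries and 170067 to 195361 in the liver libraries. The number at 0 among the 89892 genes alone is not given here. How far values of 0 bear on the lean was not tested. After quantile normalization the share higher in brain than in spleen was 58.7%, with a median log2 difference of -0.020.

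**Figure D5:**
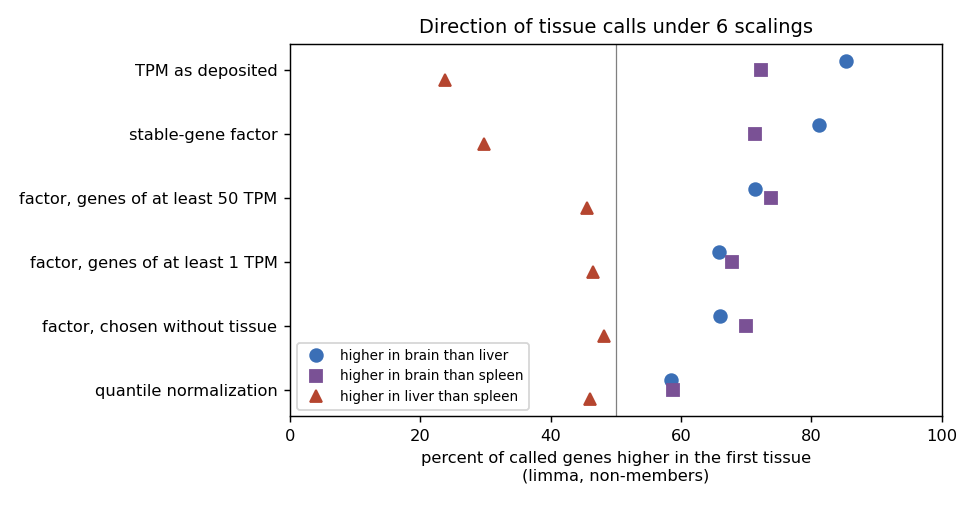
Share of genes called by limma between tissues, among genes that are not members, that were higher in the first tissue named, under 6 scalings; the grey line marks 50%. The share higher in brain than in liver falls from 85.3% on TPM as deposited to 81.1% with the stable genes and 58.5% after quantile normalization.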

How the data were processed

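Libraries of 12 samples were used, 4 per tissue. Reads of 125 bp were cleaned and assembled with Trinity by the authors, per the labels' protocols. The deposited values are TPM per assembled gene as the authors made them, a unit read from the values themselves (2 decimals, a fixed total in every library). The quantification tool is not given in the sources used here. The labels' protocols describe the dissection of liver alone and do not say whether a library pools fish, so SDs and p-values measure the spread between these libraries.

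The members, lists and alternatives were chosen with earlier results of these data known. The named IDs are the 3 most abundant and 3 flattest members, those next to each limit, for each tissue the relatively highest and lowest member, and for diet and feeding the member moving one way in all 6 pairs with the largest smallest difference. Members sharing a component were added. Gene lists could not be applied, as no ID has a name. The rule was applied to TPM as deposited. Library factors are medians over genes of log2 TPM minus the gene's mean. For factors from genes chosen without the tissue, each tissue had its own set of genes, and the gene's mean was over the other 8 libraries. The tissue's mean deviation was then scaled down to the size of a deviation from the mean of all tissues.

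Tissues were compared with limma 3.58.1 (trend, robust) in R 4.3.3 on log2(TPM / factor + 1), over genes of at least 1 TPM in 2 or more libraries, with Benjamini-Hochberg adjustment; only non-members were counted. The model had 3 coefficients and 9 residual degrees of freedom, so diet and feeding count as spread. Fold changes on this scale understate those of low genes. The fit was run on simulated data in which few genes differed, in liver alone and in random directions. That run does not cover differences as many and as lopsided as those between these tissues. Summaries used Python 3.11.15, pandas 2.3.3 and numpy 2.4.6, and plots matplotlib 3.10.9. Alternatives were other limits, reference genes, scalings, filters, a pseudocount of 0.1, limma without trend, each library left out, and a block for the diet and feeding combination. Smaller panels, members split by level and the spread of non-members were added after seeing the data. So were the numbers of stable genes after division by the factors from genes of at least 50 TPM and of at least 1 TPM.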

Additional observations from a re-analysis of the deposited data

Results flagged for a closer look

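For 78 sets of 4 values, the 4 libraries of a tissue for 1 quantity, the highest or lowest library was compared with the other three by Dixon's ratio, and 3 had a library apart. Chance gives about 1 in 20. The 80 genes took 7.03% of TPM in the brain library of soybean oil sampled before feeding, against 4.53% to 4.85% in the other brain libraries. TRINITY_DN118890_c1_g4 stood at 863 TPM in that same library, against 466 to 492 TPM in the others. TRINITY_DN112586_c0_g1 stood at 96.3 TPM in the brain library of soybean oil after feeding, against 116 to 120 TPM in the others.

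The log2 library factor of the 80 genes was higher with soybean oil than with fish oil by 0.12 in brain and by 0.076 in spleen, and lay at -0.11 in liver, with both pairs of each tissue on the same side. The diet difference in brain exceeded that in liver by 0.23, and that in liver minus that in spleen was -0.18. These differences between tissues were not tested. With the factor from genes of at least 1 TPM in every library, the diet difference in brain was -0.16 before and -0.048 after feeding. In liver it was -0.40 and -0.19, and in spleen -0.28 and 0.40. The sign in brain, and that in spleen before feeding, thus depended on the reference genes.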

How the results depend on the processing

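Values are given where an alternative moved a count by over 1.5 times, a factor difference by more than 0.13 (the SD of factors within a tissue) or a share by over 10 percentage points, or changed a sign; the causes were not tested. The number of stable genes was 221 with a minimum of 20 TPM, 39 with 100 TPM, 7 and 239 with ratio limits of 2 and 5, and 166, 197 and 155 after division by the factor from the 80 genes, from genes of at least 50 TPM or from genes of at least 1 TPM. Of the 80 genes themselves, 74, 49 and 39 met the rule after these divisions, in that order, and 51 did so after quantile normalization. Leaving out single libraries gave 81 to 121, the highest without the liver library of soybean oil after feeding.

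The brain-to-liver factor difference was 0.0047, 0.70 and 0.77 with ratio limits of 2, 5 and 10, 0.84 and 1.03 with all genes of at least 50 and 1 TPM, 1.02 with genes chosen without the tissue, and 0.035, 0.012, 0.021 and -0.0034 with the 3, 5, 10 and 20 flattest members, which were picked for being flat. Leaving out single libraries gave 0.26 to 0.46. The liver-to-spleen difference was 0.066, -0.67 and -0.72 with these limits, -0.84, -0.88 and -0.90 with the wider sets, -0.076, 0.034 and -0.13 with the 5, 10 and 20 flattest, and 0.030 with members alone in their component, and -0.46 to -0.25 with a library left out. The values of 0.46 and -0.46 came without the liver library named above. For each factor difference with a library left out, the genes were chosen anew on the remaining libraries. The brain-to-spleen difference, 0.044, was -0.0038 with genes of at least 50 TPM, 0.28 with members alone in their component, -0.13, -0.064 and -0.13 with the 3, 5 and 20 flattest, -0.023 with the 40 more abundant members, 0.16 with a minimum of 20 TPM, 0.15 with all genes of at least 1 TPM and 0.0056 to 0.10 with a library left out.

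A mean of at least 5 TPM left 12139, 7323 and 11510 genes called between brain and liver, brain and spleen, and liver and spleen, as fewer were tested. These were out of 17763 non-members tested, against 89892 with the main filter, so the share called was larger in each comparison. The share of calls higher in brain than liver was 65.8%, 66.0% and 58.5% with the factor from genes of at least 1 TPM, from genes chosen without the tissue and after quantile normalization. The share higher in brain than spleen was 58.7% after quantile normalization. The share higher in liver than spleen was 45.5%, 46.4%, 48.2% and 46.0% with genes of at least 50 TPM, of at least 1 TPM, chosen without the tissue and after quantile normalization. With a replicate block for the diet and feeding combination, 36597, 23570 and 28141 genes were called; the numbers mark the combination, not a shared fish.

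After the factor, 1 member was lower with soybean oil and 1 lower after feeding in all pairs. The former, TRINITY_DN137355_c1_g1, was not among the 2 that were lower with soybean oil in TPM as deposited. With a library left out, which drops a pair, the diet count on TPM as deposited was 2 to 4, the highest without either spleen library after feeding. The feeding count was 10 to 14, the highest without either fish oil liver library. The share within the limits in held-out libraries was 76.6% in brain, 45.7% in liver and 68.6% in spleen with a limit of 2, against 62.0%, 50.2% and 75.1% of the genes not chosen, so the chosen genes did less well than the others in liver and spleen. With limits of 2 and 5 it was 31.7% and 85.1% for genes chosen after feeding, against 2.5% and 10.3% of the genes not chosen. It was 38.7% and 89.4% on soybean oil, against 11.1% and 20.2%, and 20.7% and 77.5% on fish oil, against 3.61% and 10.7%. For genes chosen before feeding it was 83.4% with a limit of 5, against 15.3%. The named members above the ratio of 3 after the factor were TRINITY_DN120206_c0_g1 at 3.57, TRINITY_DN137355_c1_g1 at 3.68 and TRINITY_DN122192_c0_g1 at 3.35.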
